A study of Mus musculus with 11 samples.

Results

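The cytosolic ribosomal protein genes encode the protein part of the 40S and 60S subunits of the ribosome that translates nuclear messages. They were taken by gene symbol (Rps or Rpl followed by a number with at most one of the endings a, x or l, plus Rpsa and Rplp0 to Rplp2), with a mean level of at least 1 CPM (counts per M of the library total) required over all libraries. Of 23418 distinct symbols in the count table, 80 matched the symbol rule and 75 met the level, 30 of the small and 45 of the large subunit, and all 75 were among the 14531 genes tested. Poly-A RNA of all cells of the mandibular condylar fibrocartilage, the tissue that covers the head of the jaw joint, was sequenced from 11 female C57BL/6 samples. Mice were wild type (WT) or carried a knockout of estrogen receptor alpha (ERalphaKO, written KO). All were ovariectomized at 6 weeks of age, received a placebo (Plb) or a 0.01 mg estradiol (E2) pellet made for 60-day release for 1 week, and were 7 weeks old. WT placebo has 2 libraries, and WT estradiol, KO placebo and KO estradiol have 3 each. The labels do not say that the samples are separate animals, so the p-values here reflect only how far these samples differ among themselves, part of which can be technical. The labels also do not say which part of the receptor gene is missing. In RNA from a whole tissue, fewer cells of a type and less RNA per cell cannot be told apart.

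A ribosome holds one copy of nearly every ribosomal protein, and cells make these proteins in matched amounts alongside ribosomal RNA. In mammals most of their messages begin with a 5′ terminal oligopyrimidine (TOP) tract, a run of C and T at the cap, through which mTOR and LARP1 set how strongly they are translated and stored. Their promoters usually lack a TATA box and often hold binding sites of ETS factors such as GABP.

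The start-site windows below are shown because that pyrimidine run was the feature looked for at the start site. RefSeq promoters (GRCm38.p6) were found by symbol for 56 of the 75 genes and for 16 of the 20 genes that were lower in KO under estradiol, described further on. A run of at least 8 C or T on the transcribed strand, from 20 bases before to 20 bases after the annotated start, stood in 25 of the 56 (44.6%) and in 15.9% of all 27025 genes with such a window. On the other strand the same run stood in 7.14% of the ribosomal protein genes and 17.3% of all genes. Of the 16 called genes with a window, 7 held the run, a share near that of the 56. Windows of called genes without the run are not shown. These 7 windows belong to called genes that hold the run, and the capitals mark the longest unbroken stretch of C and T, or both where 2 are equally long:
Rpl39 (chrX:37085203-37085242, minus strand): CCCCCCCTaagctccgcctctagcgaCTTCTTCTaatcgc
Rpl15 (chr14:18270967-18271006, minus strand): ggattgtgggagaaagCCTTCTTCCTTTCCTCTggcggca
Rpl14 (chr9:120571497-120571536, plus strand): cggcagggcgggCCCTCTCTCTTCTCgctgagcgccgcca
Rpl27a (chr7:109519175-109519214, plus strand): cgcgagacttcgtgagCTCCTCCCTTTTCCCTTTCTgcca
Rps12 (chr10:23787190-23787229, minus strand): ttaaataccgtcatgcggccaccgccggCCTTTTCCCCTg
Rpl28 (chr7:4792945-4792984, plus strand): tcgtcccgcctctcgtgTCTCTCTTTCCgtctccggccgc
Rps18 (chr17:33955646-33955685, minus strand): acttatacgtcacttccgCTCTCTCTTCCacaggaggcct
In Rpl15, Rpl14, Rpl27a, Rpl28 and Rps18 the run spans the annotated start, in Rps12 it begins after it, and Rpl39 has 1 run at the upstream end of the window and another after the start. The same windows of the 3 paralogues, shown whether or not they hold the run, read:
Rpl3l (chr17:24727806-24727845, plus strand): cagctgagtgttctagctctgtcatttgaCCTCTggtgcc
Rpl39l (chr16:10170208-10170247, plus strand): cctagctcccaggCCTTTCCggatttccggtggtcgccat
Rps27l (chr9:66946066-66946105, plus strand): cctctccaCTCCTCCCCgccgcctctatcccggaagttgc
The longest run was 5 bases in Rpl3l, 7 in Rpl39l and 9 in Rps27l, so only Rps27l reached the limit of 8. The 7 windows above were chosen for holding the run, so they cannot serve as a contrast to the paralogues. With the run in 44.6% of the 56 genes, a window without it is common in the family. Over the whole window from 250 bases before to 50 after the start, on either strand, the ETS core CCGGAAG was found in 41.1% of the 56 genes and 9.12% of all genes. TATAAA was found in 8.93% against 14.2%, AAGATGGC (the YY1 core) in 5.36% against 2.88%, and an estrogen response element (GGTCA and TGACC with any 3 bases between them) in 0 of the 56 against 0.0666%. Read on the other strand the ETS core is CTTCCGG, whose first bases can be part of a C and T run. Each match describes letters only, and a missing match says only that those letters are not in the window.

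Libraries held 15.7 to 25.5 M counts. Esr1, which encodes the targeted receptor, ran from 6.43 to 13.4 CPM in the WT libraries and from 2.55 to 4.86 CPM in the KO libraries, and averaged over agents it was lower in KO by a log2 difference of -1.25 (SE 0.21, edgeR quasi-likelihood adjusted p = 0.00478). The fibrocartilage genes Col1a1, Col2a1, Acan, Sox9 and Prg4 were present in all 11 libraries, with the lowest value 29.2 CPM for Prg4. Of the same list of 10 markers, Scx ran from 17.1 to 35.1 CPM. Tnmd was low, from 0.165 CPM in WT estradiol 3 to 5.04 CPM in WT placebo 2. The precursor ribosomal RNA Rn45s took 16.0% of counts in WT placebo 2 and 1.83% to 3.13% in each other library. CPM below is scaled by TMM library factors unless stated.

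All 75 genes had a lower fitted level in KO than in WT, both under placebo and under estradiol. The WT placebo libraries held 19882 and 22118 CPM summed over the 75 genes, with 21479, 20839 and 26704 in WT estradiol, 18972, 18769 and 19349 in KO placebo, and 18451, 19455 and 18030 in KO estradiol. Every KO library lay below every WT library, and the third WT estradiol library stood well above the rest. Group means were 21000 ± 1581 CPM (SD, n = 2) for WT placebo, 23008 ± 3218 (SD, n = 3) for WT estradiol, 19030 ± 295 (SD, n = 3) for KO placebo and 18646 ± 732 (SD, n = 3) for KO estradiol. The KO estradiol mean was 0.810 times the WT estradiol mean, and the KO placebo mean 0.906 times the WT placebo mean. Without WT estradiol 3 the first of these ratios was 0.881.

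The separation of the summed levels held with DESeq size factors, upper-quartile factors and TMM factors computed without the ribosomal protein genes and Rn45s, and it did not hold for unscaled library totals. As a share of all counts the 75 genes took 1.91% to 2.81% in WT and 1.85% to 2.09% in KO, so these ranges overlap. WT estradiol 3 was the library with the highest level for 72 of the 75 genes, and KO estradiol 3 the one with the lowest for 54. The summed level of 10 fibrocartilage markers was lowest of all libraries in WT estradiol 3, at 108508 CPM against 131893 and 140201 in the other WT estradiol libraries. The part of that difference in the ribosomal protein levels was not tested.

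**Figure D1:**
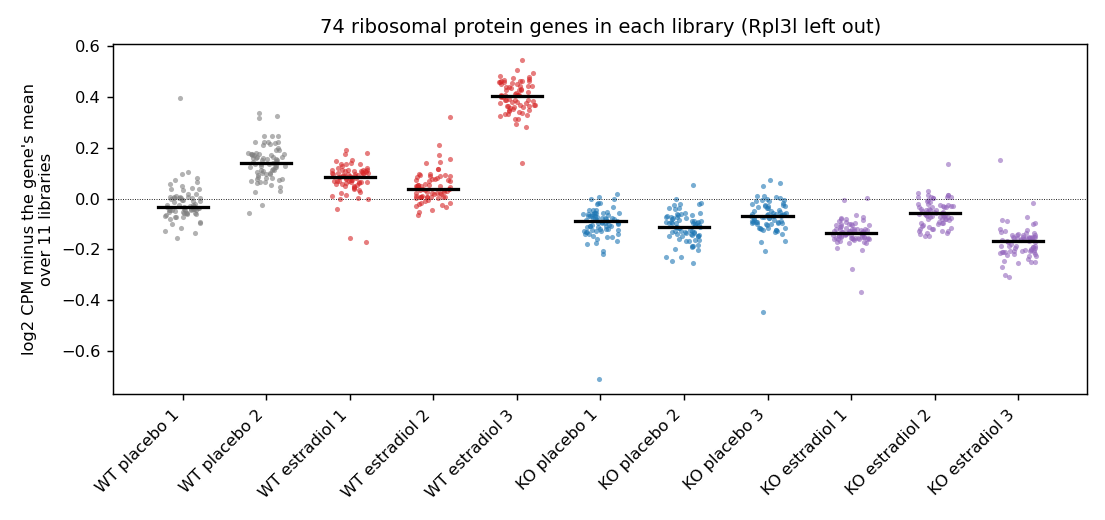
Each point is one of 74 ribosomal protein genes in 1 library, as log2 CPM minus that gene's mean over 11 libraries, and the black bar is the median gene (Rpl3l, which varies far more, is left out). The whole cloud of points moves up or down together from library to library, highest in WT estradiol 3 and lowest in KO estradiol 3.

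The genes moved together from library to library. After the level of the median ribosomal protein gene of each library was taken away, the SD over the 11 libraries of what remained had a median of 0.052 on the log2 scale, and it was under 0.1 for 71 of the 75. Because of this the 75 genes are not 75 independent observations of a condition, and a count of genes below 0 carries less weight than its size. The median SD between replicates on the log2 scale was 0.13 for the ribosomal protein genes and 0.16 for all genes tested.

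Under estradiol, 20 of the 75 genes fell in KO relative to WT and none rose (edgeR quasi-likelihood test, adjusted p under 0.05). Over all genes tested 11.5% were called in that comparison, while 4.2% were called lower and 7.27% higher. The median log2 difference of the 75 was -0.30 (a change of -19.1%), and all 75 were below 0, where 50.2% of all genes tested were. Apart from Rpl3l the genes ran from -0.42 in Rpl41 to -0.19 in Rps25. Of the 20 called genes, 16 encode large subunit proteins and 4 small subunit proteins (Rps2, Rps12 and Rps18 among them), out of 45 and 30, with median differences of -0.31 and -0.29. At an unadjusted p under 0.05 there were 68 of the 75, and 3909 of all 14531 genes tested. The KO and WT libraries did not overlap for 66 of the 75, where 16.9% of all genes tested were without overlap in the lower direction.

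Rpl10, which joins the 60S subunit last and sits by the peptidyl transferase centre, had the smallest p. It stood at 440, 451 and 521 CPM in WT estradiol and at 370, 371 and 371 CPM in KO estradiol. The KO libraries were nearly equal and all lay below the WT libraries. The log2 difference was -0.34 (SE 0.08, edgeR quasi-likelihood adjusted p = 0.0149). Of the 75, Rpl10 also has the largest overlap in sequence with other annotated genes. Of the 100-base windows of its transcript, 91.57% occur in at least 1 of them. The part of shared sequence in its level was not tested.

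Rpl37, a zinc-binding protein of the large subunit, stood at 181, 174 and 221 CPM in WT estradiol and 146, 149 and 138 CPM in KO estradiol. No KO library reached a WT library, and the log2 difference was -0.41 (SE 0.10, edgeR quasi-likelihood adjusted p = 0.0169). Rpl41, the shortest ribosomal protein and a bridge between the subunits, stood at 338, 320 and 410 CPM against 274, 283 and 243 CPM in the same groups. It differed by -0.42 on the log2 scale (SE 0.11, edgeR quasi-likelihood adjusted p = 0.0277), again with no overlap.

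Rpl39, a protein of the wall of the peptide exit tunnel, measured 121, 114 and 149 CPM in WT estradiol and 97.0, 100.2 and 96.2 CPM in KO estradiol. Its log2 difference was -0.39 (SE 0.10, edgeR quasi-likelihood adjusted p = 0.0277), and the groups stood apart. Rpl36a, which lies at the tRNA exit site, measured 134, 132 and 163 CPM against 108, 114 and 110 CPM, a log2 difference of -0.37 (SE 0.10, edgeR quasi-likelihood adjusted p = 0.0285). In each of these genes the highest WT value was that of WT estradiol 3. The other 15 genes called lower included Rps2, Rpl15, Rpl14, Rpl27a, Rpl3, Rpl10a, Rpl6, Rplp1, Rps12, Rpl29, Rpl37a, Rpl23, Rpl28 and Rps18, in order of p.

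The count of 20 rested on single libraries. It fell to 2 (Rpl10 and Rpl37) without WT estradiol 3, with all 75 genes still below 0 and a median of -0.18. It was 2 without KO estradiol 1, 1 without KO estradiol 2, 0 without KO estradiol 3 and 9 without WT estradiol 1. It was 7, 8 and 10 without KO placebo 1, 2 and 3, which stand in neither group and enter through the shared scaling and spread. In each of these fits all 75 genes stayed below 0. The median was -0.30, -0.33 and -0.28 without KO estradiol 1, 2 and 3, and -0.36 without WT estradiol 1. Without KO placebo 1, 2 and 3 it was -0.30, -0.30 and -0.31. By contrast 30 genes were called without WT estradiol 2 and 41 by DESeq2, while 16 were called by limma-voom and 6 by edgeR with library totals or with only the groups compared. Rpl37 stayed called in 20 of 21 alternatives and Rpl10 in 19 of 21, and no called gene changed direction in any of them. Calls over all genes tested also moved, from 1667 to 919 without WT estradiol 3. They were 1368, 867 and 1072 without KO estradiol 1, 2 and 3, and 976 without WT estradiol 1. Without KO placebo 1, 2 and 3 they were 1393, 1432 and 1569. Without WT estradiol 2 they fell to 1164. DESeq2 gave 2176, out of 18201 genes with a p-value, and it adjusted p after its own filter on low counts.

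Markers of other cells differed between the same libraries. The summed level of 10 neutrophil markers ran from 8.0 to 41.7 CPM in WT estradiol and from 1266 to 4543 CPM in KO estradiol, and 7 of the 10 were called higher in KO. All 9 B lineage markers were called higher, with sums of 18.6 to 22.1 CPM against 148 to 271 CPM. Of 7 osteoclast markers, 5 were called lower, with sums of 12347 to 12831 CPM in WT and 7996 to 9476 CPM in KO, and 6 of 10 cell cycle genes were called higher (363 to 486 CPM against 531 to 694 CPM). The part of these cells in the ribosomal protein levels was not tested.

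**Figure D2:**
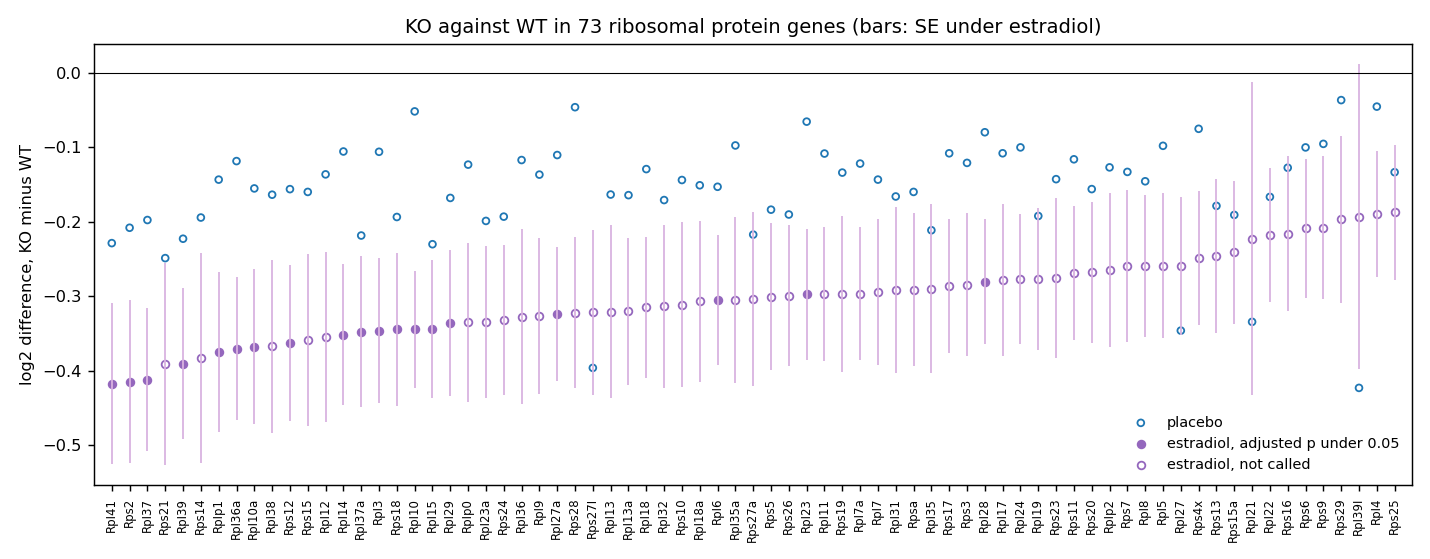
Log2 difference of KO minus WT for 73 genes, ordered by the value under estradiol (purple, filled where the edgeR adjusted p was under 0.05, with bars of 1 SE) and beside it the value under placebo (open blue circles). Rpl3l is among the genes not drawn. All points lie below 0, from -0.42 for Rpl41 to -0.19 for Rps25 under estradiol, and most genes lie closer to 0 under placebo.

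Under placebo no ribosomal protein gene was called between KO and WT by edgeR, DESeq2 or limma-voom, and 0.00688% of all genes tested were called by edgeR. At an unadjusted p under 0.05 edgeR gave 3 (Rpl27, Rps27l and Rpl15), all lower, and 1338 of all 14531 genes tested. The median log2 difference of the 75 was -0.15, and all 75 were below 0, where 50.6% of all genes tested were. Without WT placebo 2, the library rich in Rn45s, the median was -0.061 with 6 genes above 0, and without WT placebo 1 it was -0.24. The groups did not overlap for 49 of the 75, against 13.8% of all genes in that direction. The placebo and estradiol comparisons share no library, although they share the estimate of spread. With library totals the median of all genes shifted to 0.10, and 16 of the 75 genes were then above 0. Relative to that shift the median of the 75 was -0.14.

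Averaged over both agents, 8 genes fell in KO and none rose (edgeR quasi-likelihood test, adjusted p under 0.05), where 7.36% of all genes were called, 2.77% lower and 4.59% higher. They were Rpl27, Rps27l, Rpl37, Rpl15, Rpl39, Rpl41, Rps2 and Rpl37a. The median log2 difference was -0.23, and all 75 were below 0 against 49.9% of all genes tested. For 26 of the 75 genes every one of the 6 KO libraries lay below every one of the 5 WT libraries, and 2.62% of all genes tested did so. The count of 8 became 0 without WT placebo 2, without KO placebo 1 or without KO placebo 2, 1 without KO estradiol 3, 3 without KO estradiol 2, 4 without KO estradiol 1 and 5 without KO placebo 3. It was 6 without WT estradiol 1 or WT estradiol 3. It became 25 without WT placebo 1 and 19 without WT estradiol 2. Calls over all genes tested also moved, from 1069 to 408 without WT placebo 2. They were 579 and 466 without KO placebo 1 and 2, 1711 without WT placebo 1 and 905 without WT estradiol 2.

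Rpl27, a large subunit protein, had the smallest p in the averaged comparison. Its levels were 62.1 and 75.1 CPM in WT placebo, 63.2, 61.9 and 74.5 in WT estradiol, 51.7, 54.8 and 55.3 in KO placebo, and 54.4, 55.3 and 57.1 in KO estradiol. Every KO library lay under every WT library, and unlike most of its family Rpl27 had its highest value in WT placebo 2. The averaged log2 difference was -0.30 (SE 0.07, edgeR quasi-likelihood adjusted p = 0.0242), with -0.35 under placebo and -0.26 under estradiol (adjusted p = 0.468 and 0.0944).

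Rps27l, the p53-inducible paralogue of Rps27, measured 49.3 and 59.4 CPM in WT placebo, 45.8, 54.5 and 61.7 in WT estradiol, 40.8, 40.9 and 42.01 in KO placebo, and 44.4, 45.6 and 39.6 in KO estradiol. The lowest WT library was just above the highest KO library. Its averaged log2 difference was -0.36 (SE 0.08, edgeR quasi-likelihood adjusted p = 0.0252). Rpl15, a core protein of the large subunit, ranged from 146 to 188 CPM over the WT libraries, with a median of 150, and from 125 to 133 CPM over the KO libraries, with a median of 130. It differed by -0.29 (SE 0.07, edgeR quasi-likelihood adjusted p = 0.0289) with no overlap.

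**Figure D3:**
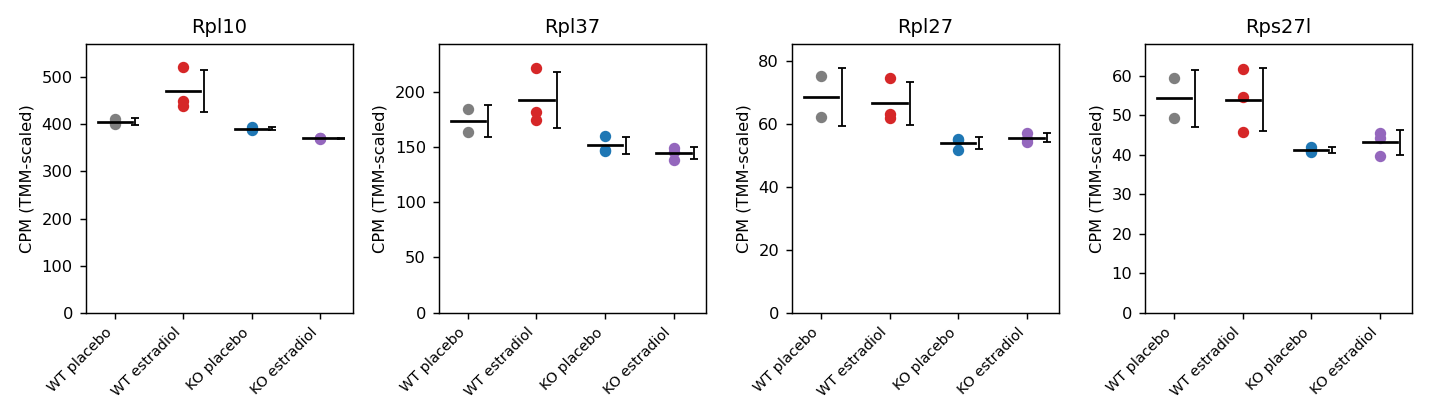
CPM of Rpl10, Rpl37, Rpl27 and Rps27l in each library (points), with the group mean (bar) and SD (bracket, n = 2 in WT placebo and 3 in each other group), on axes from 0. In each of these genes every KO point lies below every WT point. The gap is narrow in Rps27l (lowest WT 45.8, highest KO 45.6). In Rpl10 the WT placebo points at 400 and 411 lie close above the KO placebo points.

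Estradiol against placebo gave no called ribosomal protein gene in either genotype. In WT, edgeR, DESeq2 and limma-voom each called 0 of the 75, while edgeR called 1.55% of all genes tested. At an unadjusted p under 0.05 edgeR gave 1 of the 75 (Rpl10) and 2038 of all 14531 genes tested. The median log2 difference in WT was 0.13 with 70 genes above 0 and 5 below, where 49.4% of all genes were below 0, and it was 0.00014 without WT estradiol 3. The groups did not overlap for 5 of the 75 in the higher direction, against 13.2% of all genes. With library totals the median of all genes shifted to 0.14, and that of the 75 lay 0.13 above it. The summed level was 9.56% higher in WT estradiol than in WT placebo, and 0.759% higher without WT estradiol 3.

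The WT placebo libraries gave 411 and 400 CPM for Rpl10, under all of the WT estradiol values given above. Its log2 difference was 0.21 (SE 0.09, edgeR quasi-likelihood adjusted p = 0.285). Rpl14, a large subunit protein, measured 293 and 336 CPM in WT placebo and 335, 345 and 421 CPM in WT estradiol, so the groups overlapped by a narrow margin. It differed by 0.22 (SE 0.11, edgeR quasi-likelihood adjusted p = 0.379). Rpl36a, at 111 and 135 CPM in WT placebo, also overlapped WT estradiol and differed by 0.21 (SE 0.11, edgeR quasi-likelihood adjusted p = 0.420).

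In KO, edgeR, DESeq2 and limma-voom again called 0 of the 75, while edgeR called 2.73% of all genes. At an unadjusted p under 0.05 edgeR and DESeq2 each gave 1, which in edgeR was Rpl3l, and limma-voom gave 0. Over all 14531 genes tested edgeR gave 2392. The median log2 difference was -0.03 with 58 genes below 0, against 50.5% of all genes tested. Without KO estradiol 3 the median was -0.0031 with 41 below 0, and without KO estradiol 2 it was -0.056. With library totals it was 0.02, which is -0.03 relative to the median of all genes. The groups did not overlap for 11 of the 75 in the lower direction, against 12.4% of all genes, a share near that background. Rps28, a small subunit protein, measured 78.7, 75.9 and 83.2 CPM in KO placebo and 72.5, 72.4 and 68.9 in KO estradiol, without overlap, and differed by -0.15 (SE 0.10) with no call. Rpl27a, of the large subunit, measured 146, 134 and 156 CPM against 132, 138 and 136 CPM, with overlap, and differed by -0.10 (SE 0.09).

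The difference between the estradiol effects (WT effect minus KO effect) was tested directly and called 0 of the 75 genes by edgeR, DESeq2 and limma-voom, where edgeR called 1.15% of all genes. At an unadjusted p under 0.05 edgeR gave 1683 of all 14531 genes tested, and of the 75 only Rpl10. Its difference was 0.29 (SE 0.12, edgeR quasi-likelihood adjusted p = 0.326), and Rps28 and Rpl23 followed at 0.28 (SE 0.15) and 0.23 (SE 0.13). Rpl23, which can bind the p53 regulator MDM2, was between 370 and 393 CPM in 4 WT libraries, at 476 in WT estradiol 3, and between 329 and 365 in the KO libraries. The median interaction of the 75 was 0.16 with 71 above 0 and 4 below, where 50.2% of all genes were below 0, and it was 0.04 without WT estradiol 3. The genotype difference under estradiol is therefore not shown to be larger than the one under placebo for any single gene.

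By function, the values below are log2 differences of KO against WT under estradiol, with levels over all libraries of a genotype. The acidic stalk, which recruits elongation factors, has 3 genes with a median log2 difference of -0.34 and 1 called, Rplp1. Over the 5 WT libraries Rplp0 ranged from 944 to 1291 CPM with a median of 1013, and over the 6 KO libraries from 855 to 962 with a median of 868. Rplp1 ranged from 567 to 806 CPM (median 651) in WT and 515 to 575 (median 550) in KO, and Rplp2 from 224 to 309 (median 241) and 211 to 231 (median 220). All 3 ranges overlap between genotypes, and Rplp0 and Rplp2 differed by -0.34 (SE 0.11) and -0.26 (SE 0.10).

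Rpl5 and Rpl11, which carry 5S ribosomal RNA into the ribosome and bind MDM2 when ribosome assembly fails, gave 0 calls of 2. At an unadjusted p under 0.05 edgeR gave 2 of 2, and the smaller edgeR quasi-likelihood adjusted p was 0.0507. Rpl5 ranged from 286 to 376 CPM (median 309) in WT and 263 to 293 (median 275) in KO, and Rpl11 from 252 to 327 (median 282) and 229 to 265 (median 243). Both pairs of ranges overlap, and the log2 differences were -0.26 (SE 0.10) and -0.30 (SE 0.09). Of the 6 exit tunnel genes with a value, Rpl39 was called. None of the 11 genes listed here for Diamond-Blackfan anaemia, an inherited red cell disorder of ribosome assembly, was called, where 4.2% of all genes tested were called lower. All 11 were below 0 with a median of -0.30, as was the median of the 75. At an unadjusted p under 0.05 edgeR gave 10 of the 11, and the smallest edgeR quasi-likelihood adjusted p was 0.0507, just above the limit. The list is partial. It does not hold Rpl15, which was called, or Rpl27, which was called in the averaged comparison.

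Rps19, the gene most often mutated in that disorder, ranged from 177 to 244 CPM (median 193) in WT and 158 to 183 (median 170) in KO. Rps6, the substrate of the S6 kinases, ranged from 215 to 274 CPM (median 227) and from 195 to 221 (median 206). Both overlap between genotypes and neither was called, with log2 differences of -0.30 (SE 0.10) and -0.21 (SE 0.09). Rpsa, also known as the laminin receptor, ranged from 576 to 804 CPM (median 658) in WT and 551 to 597 (median 561) in KO.

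Rps4x, which is X-linked, ranged from 594 to 765 CPM (median 641) in WT and 552 to 599 (median 580) in KO. Rps27a, made as a fusion with ubiquitin, ranged from 232 to 329 CPM (median 250) and 202 to 238 (median 217). Rpl3, a protein of the peptidyl transferase centre, ranged from 477 to 630 CPM (median 507) in WT and 412 to 470 (median 443) in KO, and it was the only one of these last 3 called under estradiol (-0.35, SE 0.10, edgeR quasi-likelihood adjusted p = 0.0395). Only Rpl3 of these 3 kept every KO library below every WT library.

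Levels differed widely between genes once length was taken into account. Per kilobase of coding sequence the highest mean levels over all libraries were 4029 CPM for Rpl41, 1757 for Rplp1 and 1470 for Rps29, and the median of the 75 was 539. The coding sequence of Rpl41 is very short, and per kilobase of transcript its mean level was 691 CPM. At the other end stood Rpl3l with 1.51, Rpl39l with 31.5 and Rpl27 with 148 CPM per kilobase of coding sequence. Rps29, a small subunit protein, ranged from 226 to 322 CPM (median 245) in WT and 221 to 250 (median 236) in KO, unscaled for length, and its averaged log2 difference of -0.12 was the nearest to 0 of all 75.

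Rpl3l, the paralogue of Rpl3 made in striated muscle, was the most variable gene of the family. It measured 0.323 and 7.42 CPM in WT placebo, 1.38, 0.276 and 0.495 in WT estradiol, 3.26, 5.91 and 0.637 in KO placebo, and 0.447, 0.178 and 0 in KO estradiol. The high libraries were WT placebo 2 and KO placebo 1 and 2, and in KO estradiol 3 it was under the level of 3 counts, 0.134 CPM. The log2 difference of estradiol against placebo in KO was -4.01 (SE 1.43, edgeR quasi-likelihood adjusted p = 0.200). The summed level of 12 skeletal muscle markers was 36.9 and 1079 CPM in WT placebo, 234, 47.2 and 28.9 in WT estradiol, 473, 677 and 77.5 in KO placebo, and 12.8, 9.6 and 13.1 in KO estradiol. The part of muscle tissue in the Rpl3l level was not tested.

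**Figure D4:**
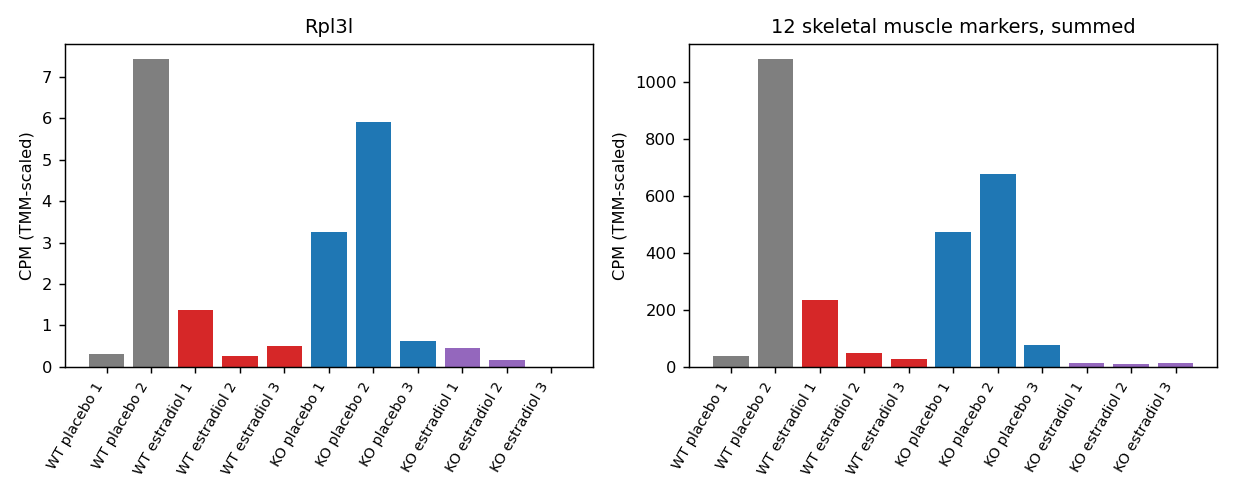
CPM of Rpl3l (left) and the summed CPM of 12 skeletal muscle markers (right) in each of the 11 libraries, with bars from 0. The 3 tallest bars in both panels are WT placebo 2, KO placebo 2 and KO placebo 1, and all KO estradiol bars are short in both.

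Rpl39l, the paralogue of Rpl39 best known from testis, measured 6.25 and 5.17 CPM in WT placebo, 4.22, 5.93 and 5.23 in WT estradiol, 4.40, 4.92 and 3.48 in KO placebo, and 3.68, 4.45 and 5.27 in KO estradiol. The genotypes overlapped and no comparison called it. Rpl21, of the large subunit, measured 299 and 338 CPM in WT placebo, 256, 321 and 391 in WT estradiol, 174, 284 and 300 in KO placebo, and 235, 313 and 281 in KO estradiol. Its lowest value was that of KO placebo 1, and the genotypes overlapped. The SD over libraries relative to the median gene was 1.93 for Rpl3l, 0.27 for Rpl39l and 0.24 for Rpl21 on the log2 scale.

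Some genes of the family had few or no counts in the table. Rpl26 and the paralogue Rpl10l had 0 counts in all 11 libraries, Rpl30 had 44 counts in all, and mean levels before TMM scaling were 0.569 CPM for Rps27 and 0.598 for Rpl34. Just inside the limit, Rpl3l had a mean of 1.78 CPM on that scale. Rpl26, Rpl30, Rps27 and Rpl34 belong to the general ribosome, and the median gene of the family stood at 247 CPM. The share of 100-base transcript windows that also occur in other annotated genes was 98.37% for Rps27, 36.77% for Rpl26, 32.48% for Rpl30 and 30.97% for Rpl34. For the 75 genes that share ran from 0% to 91.57% with a median of 41.39%, and 8 genes shared no window. The part of shared sequence in any of these levels was not tested.

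Ribosomal proteins whose symbols fall outside the pattern were read in the same way. Of 7 tested, 1 fell in KO under estradiol, where 4.2% of all genes tested were called lower. The median log2 difference of the 7 was -0.30. Rpl22l1, the paralogue of Rpl22, measured 62.1, 61.0 and 77.6 CPM in WT estradiol and 45.6, 48.0 and 43.9 CPM in KO estradiol, without overlap. It differed by -0.55 (SE 0.09, edgeR quasi-likelihood adjusted p = 0.00319), more than any of the 75 except Rpl3l. Gnb2l1 and Fau, which encode Rack1 and Rps30, differed by -0.27 and -0.18, with edgeR quasi-likelihood adjusted p = 0.102 and 0.297.

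Other genes of translation were counted for comparison, from lists set by function. The mitochondrial ribosomal proteins (76 tested) had a median KO minus WT log2 difference of -0.20 under placebo and -0.20 under estradiol, with 0 and 3 called lower. Under estradiol that is 3.95% of the list, near the 4.2% of all genes tested that were called lower. Averaged over agents 5 were called lower (6.58%), where 2.77% of all genes tested were. Most of the list also lay below 0, with 70 below and 6 above under placebo and 73 below and 3 above under estradiol. A one-sided shift is thus not particular to the cytosolic genes. Among 8 translation elongation factors 2 fell under estradiol, Eef1b2 by 0.38 and Eef1g by 0.30 on the log2 scale (edgeR quasi-likelihood adjusted p = 0.0246 and 0.0345), and the median was -0.25. None of 28 initiation factors was called, with a median of -0.11. Of these, 23 were below 0 and 5 above under estradiol, and 25 below and 3 above under placebo.

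Genes of rRNA processing and ribosome assembly (39 tested) had a median of -0.20 under placebo and near 0 under estradiol, where 1 gene rose. It was Tcof1, which works in rRNA transcription (0.36, SE 0.09, edgeR quasi-likelihood adjusted p = 0.0180). Among 17 genes of RNA polymerase I transcription, Ttf1 rose (0.35) and Mycn fell (-0.74) in KO under estradiol. Among 15 regulators of TOP messages Rps6ka1 rose (1.63), with levels of 7.54, 7.36 and 12.4 CPM in WT estradiol and 18.8, 43.4 and 23.0 CPM in KO estradiol, and Eif4ebp1 fell in the averaged comparison (-0.24). Under estradiol 1 of 39, 2 of 17 and 1 of 15 genes of these lists were called. Of all genes tested 11.5% were called in that comparison, so these shares are near or under that background. Averaged over agents 7.36% of all genes were called. The differences between these lists and the ribosomal protein genes were not tested.

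**Figure D5:**
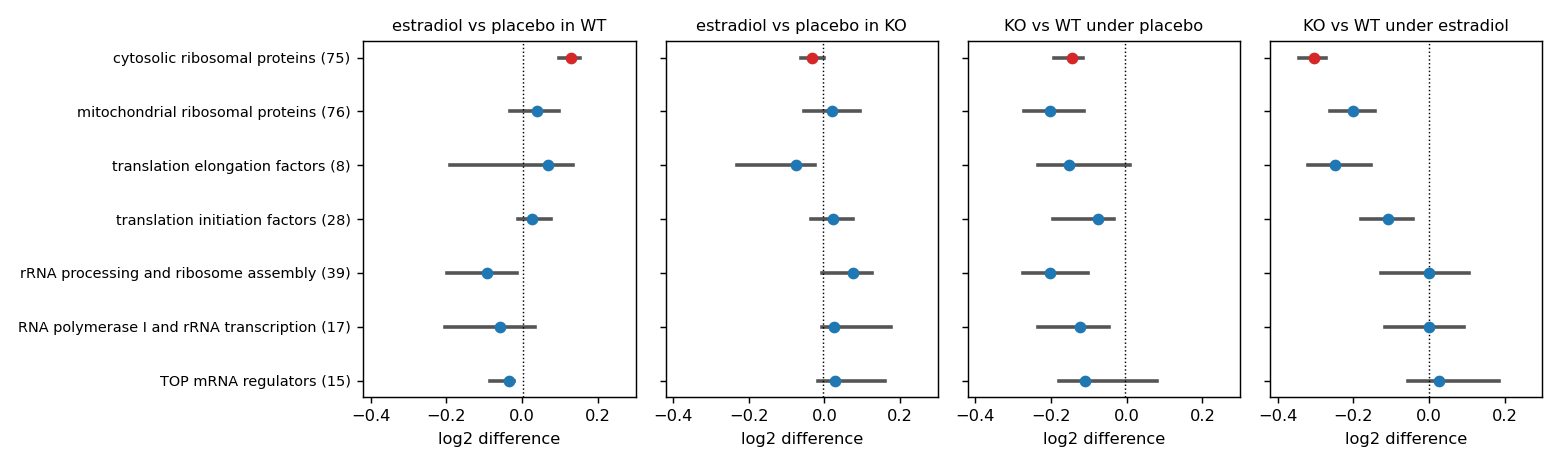
Median log2 difference (point) and quartiles (line) of the 75 cytosolic ribosomal protein genes (red) and of 6 other gene lists (blue, number tested in brackets) in 4 comparisons, with the median of all genes tested as a dotted line. Cytosolic ribosomal proteins lie farthest left under estradiol (-0.30), beside elongation factors (-0.25) and mitochondrial ribosomal proteins (-0.20).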

How the data were processed

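Poly-A RNA-seq was made from 11 samples in 4 groups. The tools bcl2fastq 2.17 and TopHat, with build mm9, are named per the submitters' processing notes. How reads were counted (program, annotation, strand) is not given in the sources used here. Per gene symbol, the authors' deposited values are raw whole-number counts, 1 column per library, with 0 columns unmapped. The authors' 6 tables of comparisons were not used here. Library totals were 15.7 to 25.5 M counts, at which 3 counts equal 0.118 to 0.204 CPM, and such floors cover counting error only.

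From the counts, edgeR 4.0.16 in R 4.3.3 kept 14531 genes (filterByExpr, at least 10 counts in enough libraries and 15 in total), scaled them by TMM and fitted 4 group means over all 11 libraries by robust quasi-likelihood with 7 residual degrees of freedom. Benjamini-Hochberg adjustment was over all 14531 genes with calls made at an adjusted p under 0.05. SE is the absolute log2 difference divided by the square root of F, and CPM is TMM-scaled. Steps were tested on simulated data. Alternatives were DESeq2 1.42.0, limma-voom (limma 3.58.1), other scalings, no filter, only the groups compared, a replicate block and each library left out.

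The genes, the lists and the tests were chosen with earlier results of these data known. Genes with values in every library are up to 5 called with the smallest p (the 3 smallest where fewer than 3 were called) per comparison, fixed paralogues and well-known members, the 3 highest and 3 lowest per coding length, and the 5 most variable; ranges stand in for some. Genes of other lists are up to 3 called with the smallest p. Coding lengths and shared windows are from GENCODE M21 (GRCm38), which is not the build of the counts. The start-site windows are the first listed per gene in RefSeq.

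Replicate numbers come from the sample titles. Same-numbered KO placebo and KO estradiol libraries had correlated deviations from their group means (0.28, 0.43 and 0.20), and with a replicate block 0 ribosomal protein genes were called between them, as without it. Single-gene values of some genes, and the summed levels with ribosomal proteins outside the pattern added, are not reported here.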

Additional observations from a re-analysis of the deposited data

How the results depend on the processing

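With 0 ribosomal protein genes called, the comparisons of estradiol with placebo, the interaction and KO against WT under placebo stayed at 0 under every alternative run. For KO against WT under estradiol the count of 20 became 6 with library totals, 41 with DESeq2, 6 with only the groups compared, 7 without WT placebo 2 and KO placebo 1 together, and 0 to 30 with 1 library left out. Averaged over agents the count of 8 became 0 with library totals, 14 with upper-quartile factors, 41 with DESeq2, 0 without WT placebo 2 and KO placebo 1 together, and 0 to 25 with 1 library left out. With the replicate block these counts were 14 and 20. Over all genes tested the calls under estradiol were 1667 in the main fit, 1476 with library totals and 2176 with DESeq2. With only the groups compared they were 1434. Averaged over agents they were 1069 in the main fit, 1292 with library totals, 1127 with upper-quartile factors and 1894 with DESeq2. Deviations of same-numbered WT and KO libraries correlated at 0.044 to 0.172 in all 10 pairs, and those of WT placebo and WT estradiol at -0.148 and -0.202. The labels do not say what a number stands for. A correlation above 0.1 in each of at least 3 pairs was asked for here as a sign of pairing. WT estradiol with either KO group did not reach it. WT placebo, with 2 libraries, could not reach it, and its pairs with KO placebo correlated at 0.143 and 0.172. The deviations of those 2 libraries mirror each other, so their pairs are not separate evidence. The median log2 difference of estradiol in WT became 0.27 with library totals, and with 1 library left out it ran from 0.00014 to 0.22, the interaction from 0.039 to 0.25, KO against WT under estradiol from -0.37 to -0.18, KO against WT under placebo from -0.24 to -0.061, and estradiol in KO from -0.056 to -0.0031. Summed levels without the 3 highest genes were 18583 CPM in WT placebo, 20363 in WT estradiol, 16786 in KO placebo and 16460 in KO estradiol. No called gene reversed. The cause of these shifts was not tested, beyond the libraries and genes each alternative removes. Levels under 3 counts per library cannot be told from 0, which touches Rpl3l and Rpl30.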
